A study of Mus musculus with 28 samples.

Results

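The locus described here is a stretch of mouse chromosome 7 from 100900000 to 101450000 (550000 bp, build mm10 per the submitters' processing notes) that holds P2ry6, P2ry2, Fchsd2, Atg16l2, Stard10, Arap1 and the 5′ ends of Arhgef17 and Pde2a. Its 6 members are P2ry6, P2ry2, Fchsd2, Stard10, Arap1 and Pde2a. All H3K27ac peaks overlapping this stretch were taken, 512 of 471458 peaks in 12 libraries, and overlapping peaks were merged across libraries into 118 of 129187 regions. The stretch was chosen because H3K27ac at several of its regions was higher in round spermatids than in pachytene spermatocytes in these same libraries. Differences between those 2 cell types are therefore given as descriptions with no test. The name given to the locus, spermatid-gained, held for only some of its regions. For the number of peaks it depended on which peaks were counted. Round spermatid libraries had 75 and 65 peaks in the locus and pachytene libraries 73 and 59, or 10.2 and 10.3 against 10.6 and 9.21 of every 10000 peaks of the library, so that the groups overlapped on both scales. Counting only stronger peaks (fold enrichment of 5 or more, a ratio of height to background defined below), round spermatids had 29 and 27 and pachytene spermatocytes 19 and 20, and among equal numbers of the strongest peaks per library the means were 15.5 and 10. Over all peaks, the stretch of equal length to the left had 52 and 53 in round spermatids and 32 and 29 in pachytene spermatocytes. That to the right had 49 and 40 against 26 and 33. The share of stronger peaks over the genome is not given, so no difference particular to the locus is read from these counts.

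H3K27ac, acetylation of lysine 27 of histone H3, marks active promoters and enhancers, and was measured by ChIPmentation, a chromatin immunoprecipitation in which a transposase inserts the sequencing adapters. The cells were testicular germ cells of C57BL/6 mice, wild type (WT) or with a knockout of Scml2 (KO), a germline Polycomb protein. Thy1+ and c-Kit+ spermatogonia were from mice at postnatal day 7 and were profiled in both genotypes. Pachytene spermatocytes (PS) and round spermatids (RS) were from adults, and their H3K27ac libraries used here were all Scml2-KO. Each of the 6 H3K27ac groups (RS KO, PS KO, and Thy1+ and c-Kit+ of each genotype) had 2 replicates, and 16 libraries of input chromatin (2 per cell type and genotype) were deposited beside them. Age, stage and the presence of the WT allele cannot be told apart in any comparison of adult cells with WT spermatogonia, nor age and stage in one with KO spermatogonia. The labels do not say whether replicates came from separate mice, how many mice were pooled, or which of sedimentation (STA-PUT) and magnetic sorting (MACS) gave which cells, so errors measure the spread between these libraries only.

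P2ry6 and P2ry2 encode nucleotide receptors coupled to Gq proteins, the first activated by UDP and the second by ATP and UTP. P2ry6 is best known from macrophages and microglia. Fchsd2 is an F-BAR and SH3 protein of membrane curvature and endocytosis, Atg16l2 is a relative of an autophagy protein, and Stard10 is a START-domain phospholipid transfer protein. Arap1 is a GTPase-activating protein for Arf in endocytic traffic, Pde2a hydrolyses cyclic AMP and cyclic GMP, and Arhgef17 is a guanine nucleotide exchange factor. Spermatogonia divide and enter meiosis, pachytene spermatocytes are in meiotic prophase, and round spermatids are the haploid cells in which the acrosome forms and genes of the sperm chromatin such as Prm1 and Tnp1 are transcribed.

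Promoter sequences from RefSeq (GRCm38.p6) are shown to set starts whose regions were higher in RS beside starts that were marked in most libraries. RefSeq lists 14 genes in the stretch, 8 of them with a promoter entry, and 5 of the 6 member genes had one (P2ry2, Fchsd2, Stard10, Arap1 and Pde2a, but not P2ry6). Each sequence runs 5′ to 3′ on the gene's strand, with 250 bases before the start and 30 after it. Capitals mark any of 4 motifs on either strand, which are TGACG (the core of a cyclic AMP response element), GTTGCC (an arm of an RFX site), CCAAT, and GGGCGG (a GC box), and neighbouring or overlapping matches run together. The first 2 lie in regions where fold enrichment was higher in both RS than in both PS libraries.
Stard10, chr7:101316836-101317115, + strand: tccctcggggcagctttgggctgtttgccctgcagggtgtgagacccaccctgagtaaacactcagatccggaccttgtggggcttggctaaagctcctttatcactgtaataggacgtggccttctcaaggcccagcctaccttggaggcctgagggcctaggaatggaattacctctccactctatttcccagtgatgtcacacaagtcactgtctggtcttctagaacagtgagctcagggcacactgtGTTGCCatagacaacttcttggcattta
Arap1, chr7:101385276-101385555, + strand: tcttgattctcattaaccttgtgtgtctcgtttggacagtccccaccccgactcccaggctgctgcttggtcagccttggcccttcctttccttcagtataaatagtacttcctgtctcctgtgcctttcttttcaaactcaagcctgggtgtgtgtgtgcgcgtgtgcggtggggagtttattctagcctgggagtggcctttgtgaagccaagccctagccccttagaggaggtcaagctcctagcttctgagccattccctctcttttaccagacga
The other 3 lie in regions called in at least 10 of the 12 H3K27ac libraries.
P2ry2, chr7:101011969-101012248, - strand: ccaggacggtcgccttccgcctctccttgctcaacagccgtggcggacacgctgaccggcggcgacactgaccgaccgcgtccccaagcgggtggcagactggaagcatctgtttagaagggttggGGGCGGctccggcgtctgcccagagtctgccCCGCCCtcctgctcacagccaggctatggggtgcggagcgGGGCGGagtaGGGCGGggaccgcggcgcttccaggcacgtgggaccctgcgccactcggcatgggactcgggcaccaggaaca
Fchsd2, chr7:101108525-101108804, + strand: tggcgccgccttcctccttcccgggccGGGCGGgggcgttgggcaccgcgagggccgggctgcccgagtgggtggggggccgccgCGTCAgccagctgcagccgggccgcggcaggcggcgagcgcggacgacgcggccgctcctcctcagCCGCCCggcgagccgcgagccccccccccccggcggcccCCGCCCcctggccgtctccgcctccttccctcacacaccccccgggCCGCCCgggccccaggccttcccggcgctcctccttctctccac
Atg16l2, chr7:101302059-101302338, - strand: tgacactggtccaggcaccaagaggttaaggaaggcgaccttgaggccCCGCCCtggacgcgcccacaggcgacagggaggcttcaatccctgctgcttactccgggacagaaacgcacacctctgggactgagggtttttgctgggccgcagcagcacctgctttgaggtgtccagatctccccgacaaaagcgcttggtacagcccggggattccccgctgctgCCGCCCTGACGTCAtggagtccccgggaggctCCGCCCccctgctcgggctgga
The first pair had a GC content of 52.9% (Stard10) and 52.5% (Arap1), with 3 and 6 CpG dinucleotides and no GC box. The 3 promoters called widely had 70.4% (P2ry2), 82.5% (Fchsd2) and 65.0% (Atg16l2), with 28, 39 and 17 CpG dinucleotides and 4, 4 and 3 GC boxes. Base composition did not divide the starts of the locus in this way throughout. The first Arap1 start (101348069), also higher in both RS libraries, had 62.5% GC, 19 CpG and 4 GC boxes, and the last Arap1 start (101394388), whose region was called in 11 libraries, had 61.8% GC, 4 CpG and 1 GC box. Over 32817 RefSeq promoters of the same length, the median was 52.5% GC and 6 CpG, and 34.7% held a GC box. One GTTGCC lay in the Stard10 sequence, a motif held by 11.8% of all promoters. The Atg16l2 sequence held the whole palindrome TGACGTCA, which 1.74% of all promoters did, and it counts as a TGACG on each strand, and the Fchsd2 sequence held 1 TGACG (19.9% of all promoters). CCAAT was in none of the 5 and in 36.1% of all promoters. Among the other letters searched, AACNGT (24.6% of all promoters) was found once, in Stard10, and ATTGT (29.8%) in none of the 5. A match describes letters in this window only.

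**Figure D1:**
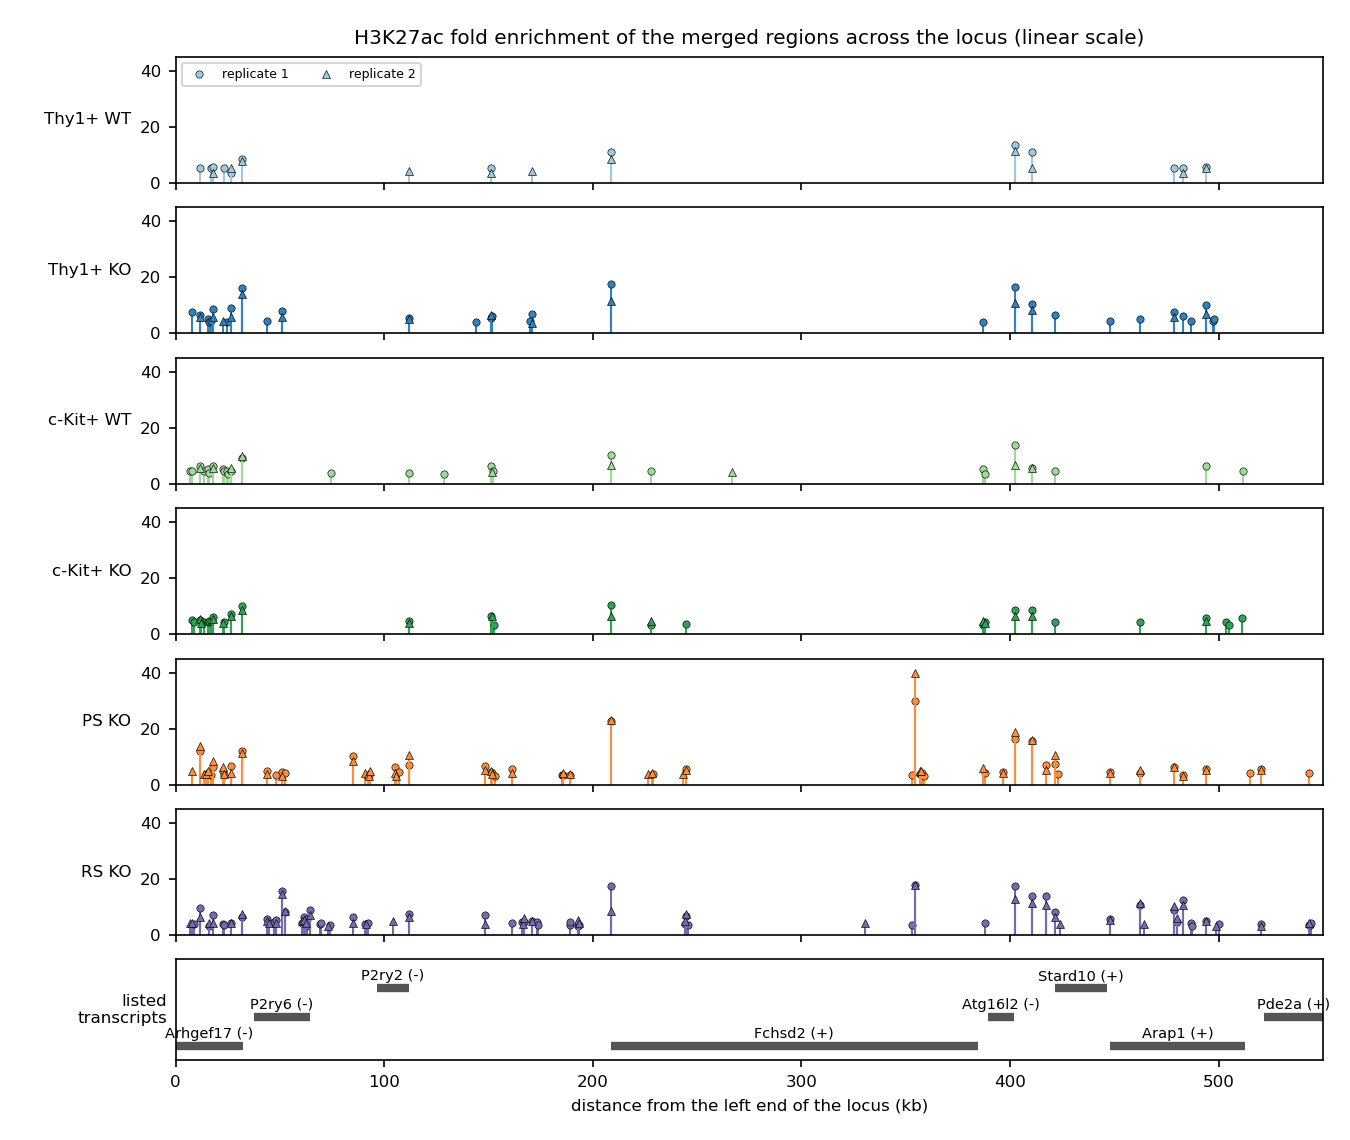
Fold enrichment of each merged region (y axis, linear) at its summit's distance in kb from the left end of the locus (x axis), 1 panel per group, with a circle for replicate 1 and a triangle for replicate 2; bars at the bottom are the transcripts listed in the files. The tallest symbols are the 2 PS KO values of the Fchsd2 exon region, 29.7 and 40.0, and the RS KO panel has more peaks over P2ry6 than any other panel.

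The libraries differed widely in how many peaks they held, from 17877 to 73316, and the locus followed. It held 20 and 18 peaks in Thy1+ WT, 51 and 25 in Thy1+ KO, 41 and 16 in c-Kit+ WT, 46 and 23 in c-Kit+ KO, 73 and 59 in PS KO, and 75 and 65 in RS KO. Replicate 1 had more in every group, and it also had the higher background height, the only sign of depth in the files (0.564 to 1.62 over the 12 libraries). As a share of each library the locus took between 8.15 and 14.7 of every 10000 peaks, the range being set by c-Kit+ WT replicate 2 and Thy1+ KO replicate 1. Of the 118 regions, 56 were called in 1 library only, 6 in all 12, and 68 in no spermatogonial library. Over the genome, 9239 of 129187 regions were called in all 12, and the other 2 counts are not given. Both RS libraries called 35308 of the 129187 and both PS libraries 35274, beside 36 and 34 of the 118 here. Read depth is unknown, and most peaks of the locus were low, with a median height of 7 to 10 in each library. The inputs had 5 peaks in the locus, in 4 of 16 libraries, all upstream of P2ry6 between 100975891 and 100981687, and none overlapped an H3K27ac peak of any library. The 4 libraries were Thy1+ KO replicates 1 and 2, c-Kit+ KO replicate 1 and PS KO replicate 2. No WT input had a peak there, and this difference between genotypes was not tested.

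By the class given in the files, 61 of the regions lay in introns, 25 between genes, 15 upstream of a gene, 12 at promoters and 5 in exons. Promoter regions were the most widely shared, with 5 of 12 called in both Thy1+ WT libraries, 9 in both PS and 10 in both RS. Of the intron regions, 2 of 61 were called in both Thy1+ WT libraries, 13 in both PS and 16 in both RS. Counts by class over the genome are not given, so nothing particular to the locus is read from these.

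Fold enrichment, the height of a peak divided by a background height with 1 added to both, is given below as the highest value of any peak in a region. Both RS libraries called 36 regions, of which 11 had no PS peak (24.0% of such regions over the genome). Both PS libraries called 34, of which 9 had no RS peak (27.6% over the genome). Of the 22 regions called in all 4 adult libraries, 7 were higher in both RS than in both PS (19.1% over the genome) and 8 were lower (51.7% over the genome). Over the 22 the median centred log2 change from PS to RS was -0.03, and over all such regions of the genome it was -0.07. The 7 comprised 4 Arap1 regions, 1 P2ry6 region, 1 Fchsd2 region and 1 region listed under both Atg16l2 and Stard10. The 8 comprised 2 Arhgef17 regions, 2 Fchsd2 regions, and 1 region each of P2ry6, Arap1, Pde2a and the Atg16l2 and Stard10 interval. The members were chosen on this contrast, so these counts describe them and support nothing. With only peaks of a fold enrichment of at least 5, the 11 became 6 and the 7 became 3, and with equal peak numbers per library they became 6 and 0. In chromatin from many cells, a larger share of cells with the mark and more of it per cell cannot be told apart. The median log2 fold enrichment over the genome's 21302 regions called in all 4 adult libraries was 3.44 and 3.48 in PS and 3.40 and 3.11 in RS, and log2 differences below are taken after subtracting each library's own median.

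The files list 19 regions under P2ry6, of which 18 were called in at least 1 RS library, 9 in both, and 3 in both PS libraries. Of the 19, 10 were called in 1 library only, mostly a single RS library, at 3.13 to 5.87 in RS. Over the genome both RS libraries called 35308 of 129187 regions and both PS libraries 35274. P2ry6 belongs to a locus chosen on this contrast, so its counts describe it and support nothing. Peaks covered 11477 and 8762 bp in RS and 3176 and 1705 bp in PS, and they covered 0 bp in 5 of the 8 spermatogonial libraries. The strongest P2ry6 region in RS lay in an intron (100949428 to 100951571), 13352 bp into the gene. Its fold enrichment was 15.6 and 14.6 in RS KO, 4.58 and 3.20 in PS KO, and 8.10 and 5.76 in Thy1+ KO, and no peak was called in Thy1+ WT or in c-Kit+ cells of either genotype. Both RS values lay above all others, by 2.19 on the centred log2 scale over PS (15.1 ± 0.735 against 3.89 ± 0.974, SD, n = 2 each). The P2ry6 promoter region (100963823 to 100965295, summit 116 bp inside the start) was called in both RS libraries, at 9.00 and 7.03, and in no other library. Between these 2 regions lay a further intron region (100951667 to 100954208), at 8.21 and 8.66 in RS and at 4.19 in 1 PS library. Closer to the start, 3 intron regions were called in both RS libraries and nowhere else, with fold enrichments of 3.13 to 6.26. Deeper in the gene, an intron region (100943396 to 100944701) differed little, at 5.87 and 4.87 in RS, 4.96 and 3.73 in PS and 4.56 in Thy1+ KO replicate 1. An upstream region at -20607 bp from the P2ry6 start (100984325 to 100985831) was lower in RS, at 6.26 and 4.33 against 10.3 and 8.53 in PS, and had no spermatogonial peak.

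Genes of macrophages and other blood cells, which are not germ cells, had promoter peaks in libraries where P2ry6 had peaks. Of the 4 macrophage markers, Csf1r, Cd68 and Cx3cr1 had a promoter peak (summit within 1000 bp of a listed start) in both RS libraries, 1 (Cd68) had one in both PS libraries, and Adgre1 had no listed start in the files. Their summed fold enrichment was 22.2 to 28.6 in RS, 4.80 to 9.15 in PS, 0 to 5.57 in Thy1+ KO, and 0 in Thy1+ WT and both c-Kit+ groups. At Cd68 the values were 15.3 and 14.6 in RS, 6.10 and 4.80 in PS, and 5.57 in Thy1+ KO replicate 1. These are values of peaks with a summit near the Cd68 start. The wider merged region that holds them was called in every spermatogonial library. Its centred log2 change from PS to RS was -0.17 (SE 0.201, limma adjusted p = 0.595). Ptprc, the pan-leukocyte gene that encodes CD45, was called in RS (9.00 and 7.03) and in Thy1+ KO (5.06 and 4.48) and nowhere else. The P2ry6 intron region was called in these groups and also in both PS libraries, where Ptprc had no peak, and the P2ry6 promoter was called in RS alone. Hbb-bs had no listed start. The part of such cells in the P2ry6 values was not tested. Equal values at 2 loci of 1 library, as at P2ry6 and Ptprc, arise because heights are whole numbers over 1 background.

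**Figure D2:**
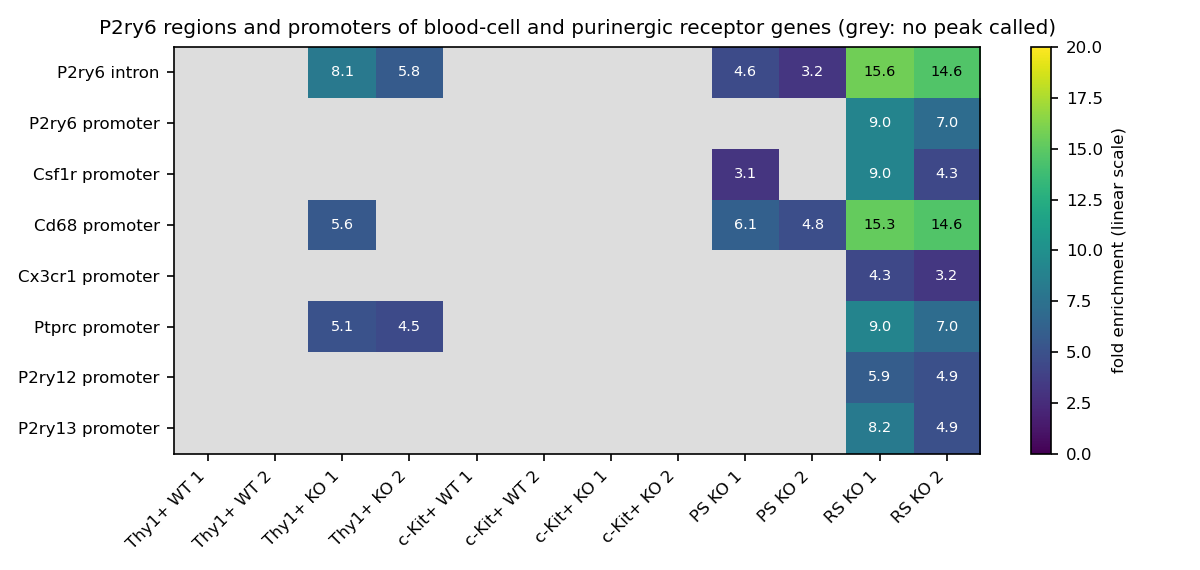
Fold enrichment (colour and printed value, linear scale) of the P2ry6 intron and promoter regions and of promoter peaks of 4 blood-cell markers and 2 purinergic receptor genes (rows) in the 12 H3K27ac libraries (columns, group and replicate); grey means that no peak was called. The rows were chosen after their values were seen, so what they have in common is part of that choice. All 8 rows are filled in both RS KO libraries and none is filled in Thy1+ WT or c-Kit+ cells. Among purinergic receptor genes not shown, P2rx4 and P2rx6 had promoter peaks in all 12 libraries, and P2ry1 had none in RS KO.

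P2ry2, the neighbouring nucleotide receptor, did not share that pattern. Its promoter region (101011247 to 101012621, summit 18 bp before the start) was called in 10 of 12 libraries. Fold enrichment was 4.22 in 1 Thy1+ WT library, 5.57 and 5.12 in Thy1+ KO, 3.99 in 1 c-Kit+ WT library, 4.73 and 4.08 in c-Kit+ KO, 6.86 and 10.7 in PS KO, and 7.43 and 6.49 in RS KO. The PS and RS values overlapped, and both adult groups lay above every spermatogonial value. Only 1 of its 12 listed regions was called in both RS libraries, and 3 were called in both PS libraries. Length under P2ry2 peaks was 2263 and 2672 bp in PS and 1209 and 698 bp in RS, the opposite order to P2ry6.

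Fchsd2 held the strongest peak of the locus, and it was stronger in PS. The region is of the exon class in the files (101253354 to 101256512, 145864 bp into the gene). It reached 29.7 and 40.0 in PS KO and 18.0 and 17.9 in RS KO, with no peak in the 8 spermatogonial libraries (34.9 ± 7.24 and 17.9 ± 0.0998, SD, n = 2 each). Both PS values exceeded both RS values, a centred log2 change of -0.74 from PS to RS. In RefSeq the long noncoding RNA gene Gm50587 spans 101253495 to 101258544, and 3018 bp of the 3159 bp region lie in it, an overlap noticed after the values were seen. Next to it, 2 small intron regions were called in both PS libraries and in no other, at 3.81 and 4.80 each. Their absence from RS is part of the 9 PS regions counted above.

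The Fchsd2 promoter (101106873 to 101110501) was called in all 12 libraries. It stood at 11.0 and 8.45 in Thy1+ WT, 17.7 and 11.5 in Thy1+ KO, 10.3 and 6.82 in c-Kit+ WT, 10.4 and 6.41 in c-Kit+ KO, 22.9 and 22.9 in PS KO, and 17.6 and 8.66 in RS KO. Both PS values lay above every other library. Fchsd2 also had 5 regions called in both RS and neither PS library. Fold enrichment in RS was 3.13 to 5.95 in these 5, and 1 of them (101069980 to 101071408) was also called in Thy1+ cells of both genotypes. A single intron region (101144581 to 101145290) was higher in RS, at 6.65 and 7.57 against 5.72 and 5.33 in PS, a small step beside that at P2ry6.

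Between Fchsd2 and Arap1 lie Atg16l2 and Stard10, transcribed away from each other. The Atg16l2 promoter (101301052 to 101302992) was called everywhere and changed little between adult cells, at 16.4 and 18.7 in PS and 17.6 and 12.98 in RS. It was 13.6 and 11.5 in Thy1+ WT, 16.7 and 10.9 in Thy1+ KO, 13.7 and 6.82 in c-Kit+ WT, and 8.51 and 6.41 in c-Kit+ KO. PS and RS overlapped, PS lay above all spermatogonial groups but Thy1+ KO, and c-Kit+ KO lay below all groups but c-Kit+ WT. The region between the genes (101309899 to 101311932) was also called in all 12 libraries, at 5.43 to 11.0 in spermatogonia, 15.6 and 16.0 in PS and 14.1 and 11.4 in RS.

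A second region of the interval, at -4022 bp from the Stard10 start listed in the files (101316438 to 101318470), was confined among these libraries to the adult ones. Its fold enrichment was 6.86 and 5.33 in PS and 14.1 and 10.8 in RS, with no overlap and a centred log2 change of 1.24. RefSeq places a Stard10 start at 101317086, 211 bp from this summit, which the files do not list; this start is the one whose sequence with GTTGCC is printed above. At the listed Stard10 start the promoter region (101320554 to 101322213) had 7.24 and 10.7 in PS and 8.21 and 6.49 in RS, so that the groups overlapped, and single libraries of Thy1+ KO (6.58), c-Kit+ WT (4.56) and c-Kit+ KO (4.26) called it. The centred change there was -0.06, and the difference between the 2 Stard10 regions in their change was not tested.

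Arap1 had the other large block of higher RS signal. Peaks under it covered 13958 and 10335 bp in RS, 3777 and 2427 bp in PS, and 0 to 6983 bp in spermatogonia. Its strongest RS region is of the promoter class (101381374 to 101386002) and spans the start at 101385526, though its summit lies at -2756 bp from that start. Fold enrichment there was 12.5 and 10.8 in RS, 3.43 and 3.20 in PS, 5.24 and 3.62 in Thy1+ WT, and 6.08 in Thy1+ KO replicate 1, and c-Kit+ cells had no peak. PS was below the 3 Thy1+ libraries that had a peak and RS was above them, with a centred log2 change of 2.02 from PS to RS (11.7 ± 1.20 against 3.32 ± 0.165, SD, n = 2 each). An intron region 14178 bp into the gene (101360478 to 101364000) went from 4.19 and 5.33 in PS to 10.6 and 11.4 in RS, with 5.06 and 4.26 in 1 library each of Thy1+ KO and c-Kit+ KO. The start at 101378122 lies in a region (101377328 to 101379837) with 9.00 and 10.3 in RS, 6.10 and 6.40 in PS, 7.59 and 5.76 in Thy1+ KO and 5.24 in 1 Thy1+ WT library. At none of these 3 regions did RS overlap any other group.

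A small intron region between the starts at 101378122 and 101385526 (101379889 to 101380380) was called in RS alone, at 4.69 and 5.95. The remaining 2 listed starts of Arap1 moved less. The first start (region 101347736 to 101348699) had 5.87 and 5.41 in RS and 4.58 and 4.27 in PS, and was called otherwise only in Thy1+ KO replicate 1, at 4.56. The last start (region 101392501 to 101396365) was called in 11 libraries, was highest in Thy1+ KO, at 10.1 and 7.03, and read 5.72 and 5.33 in PS and 5.08 and 4.87 in RS. Of 4 listed Arap1 starts, 3 had both RS values above both PS values, and at the last the direction turned with the scaling, with RS lower as deposited and a centred log2 change of 0.06.

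**Figure D3:**
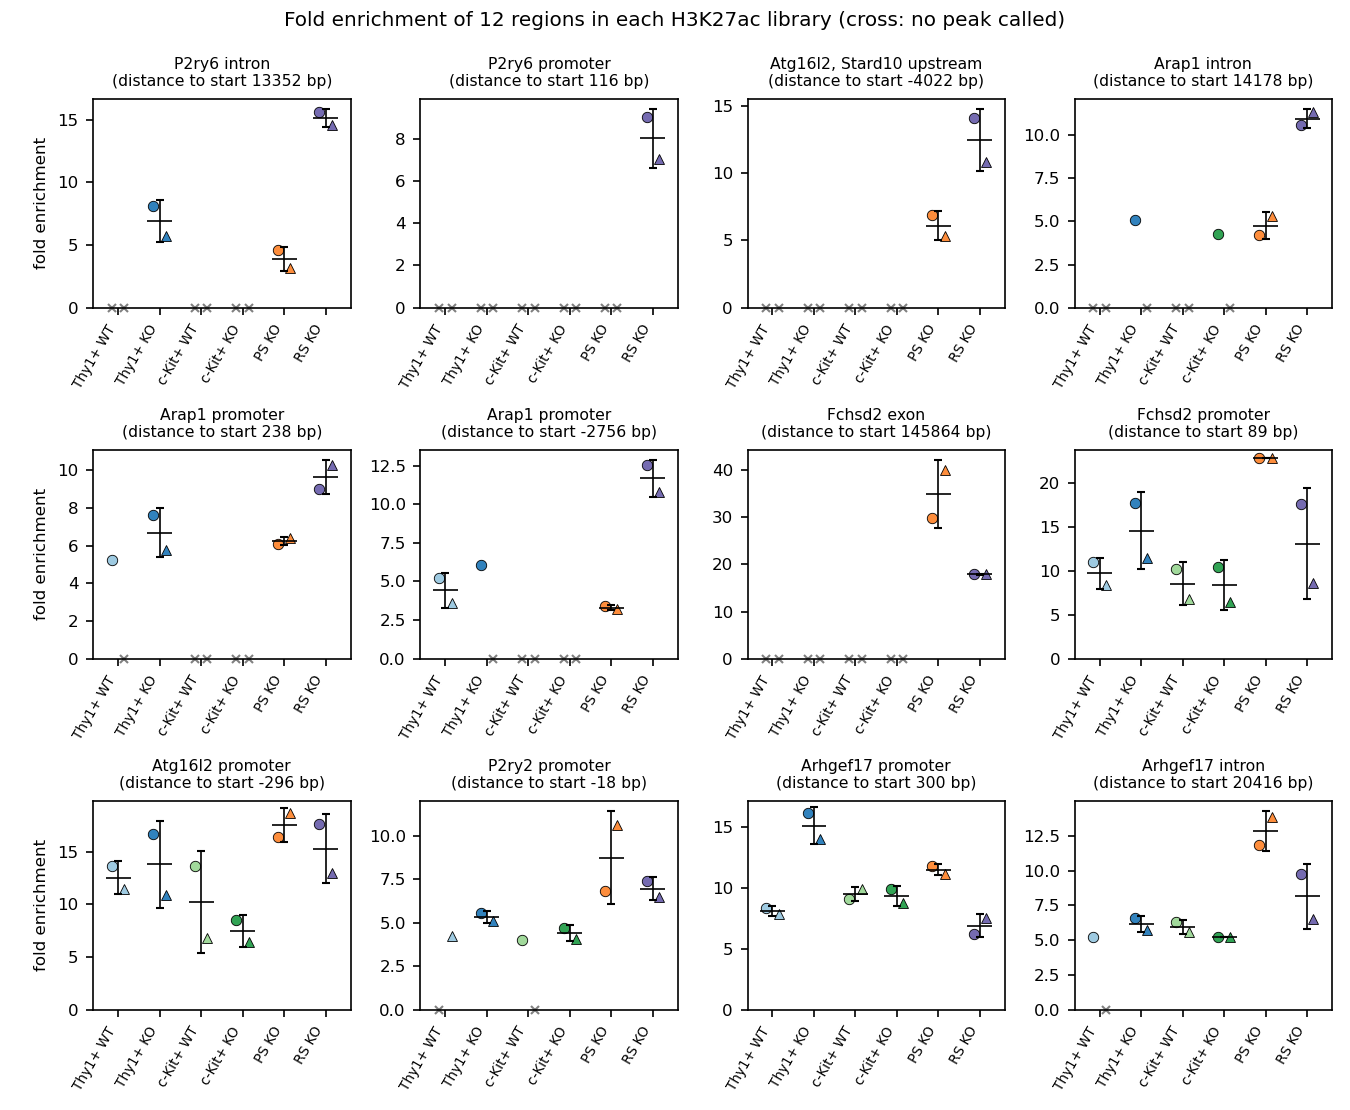
Fold enrichment (y axis, linear from 0) of 12 regions in each of the 6 groups (x axis); circles are replicate 1, triangles replicate 2, the bar and whiskers are mean and SD where both replicates were called, and grey crosses are libraries with no peak. RS KO lies above every other group at the P2ry6, upstream Stard10 and 3 Arap1 panels, while PS KO is highest at the Fchsd2 exon, the Fchsd2 promoter and the Arhgef17 intron.

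Pde2a and Arhgef17, at the ends, had no region that was higher in both RS than in both PS libraries among the regions called in all 4. One Arhgef17 intron region (100915654 to 100916571) was called in both RS libraries, at 3.13 and 4.33, and in neither PS library, and single libraries of Thy1+ KO (4.05), c-Kit+ WT (3.99) and c-Kit+ KO (4.73) also called it. Inside the stretch Pde2a had 5 weak regions, all in adult cells only, the strongest by mean RS value being an intron region (101442851 to 101443305) at 3.52 and 4.33 in RS and 4.19 in 1 PS library. An upstream region near its first start (101419596 to 101420513) was lower in RS, at 3.91 and 3.25 against 5.72 and 5.33. The first Pde2a region beyond the right edge, a promoter at 101450593 to 101451202, had 4.96 and 4.80 in PS and 5.08 in 1 RS library. The region just inside the edge (101443934 to 101444143) had 4.30 in 1 RS library.

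Arhgef17 had 18 regions, among them 3 of the 6 that were called in all 12 libraries. Its strongest region in RS, in an intron (100909168 to 100912256), had 9.78 and 6.49 in RS against 11.8 and 13.9 in PS and 5.20 to 6.58 in the 7 spermatogonial libraries that called it. The promoter (100928406 to 100933340) had 8.38 and 7.84 in Thy1+ WT, 16.2 and 14.1 in Thy1+ KO, 9.12 and 9.92 in c-Kit+ WT, 9.93 and 8.75 in c-Kit+ KO, 11.8 and 11.2 in PS KO and 6.26 and 7.57 in RS KO. Thy1+ KO was clear of all other groups, and RS was the lowest. At the left edge the region just inside (100906803 to 100907017) was called in 1 c-Kit+ WT and 1 RS library, at 4.56 and 4.33. Just outside, a region at 100893352 to 100895185 had 7.63 and 7.46 in PS and 5.87 and 4.33 in RS.

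**Figure D4:**
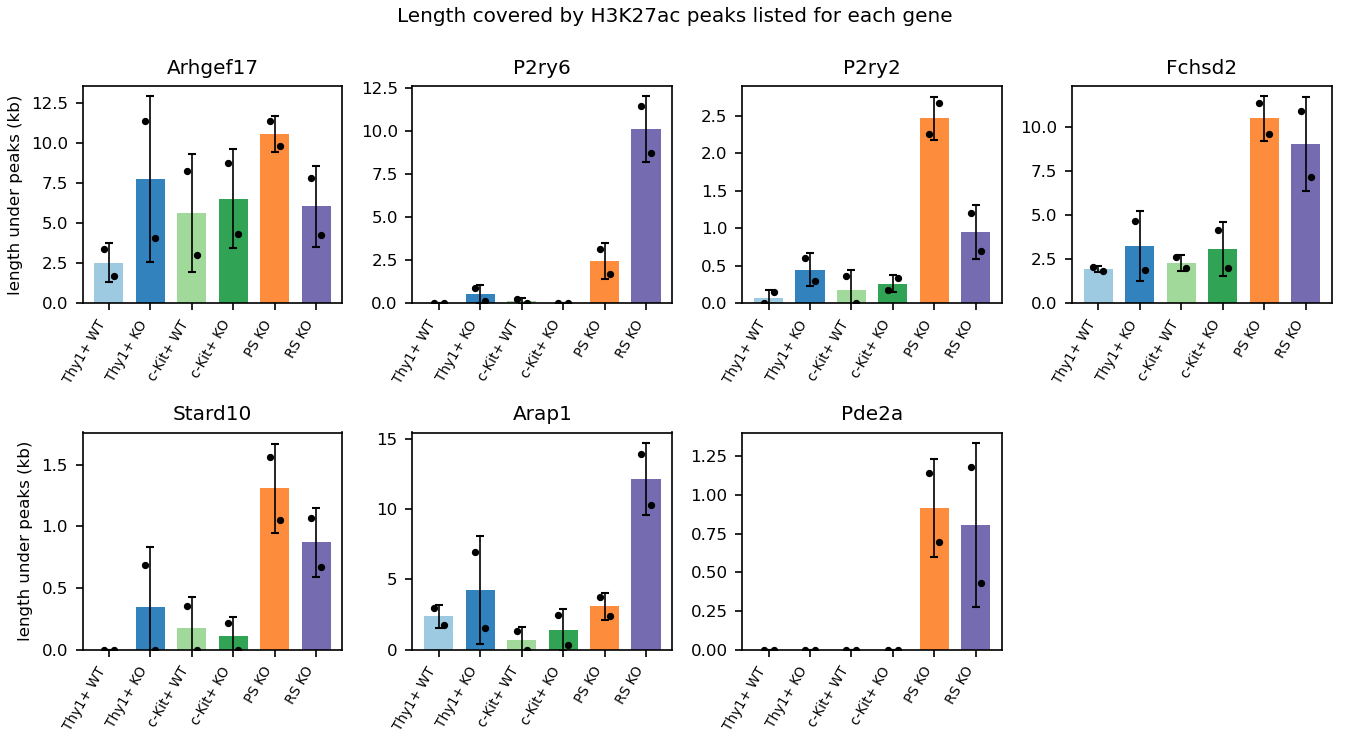
Length in kb covered by H3K27ac peaks listed for each gene (y axis, from 0) in the 6 groups (x axis); bars are means, whiskers SD and points the 2 replicates. P2ry6 and Arap1 have their highest bars in RS KO, and Arhgef17, P2ry2, Fchsd2, Stard10 and Pde2a in PS KO.

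**Figure D5:**
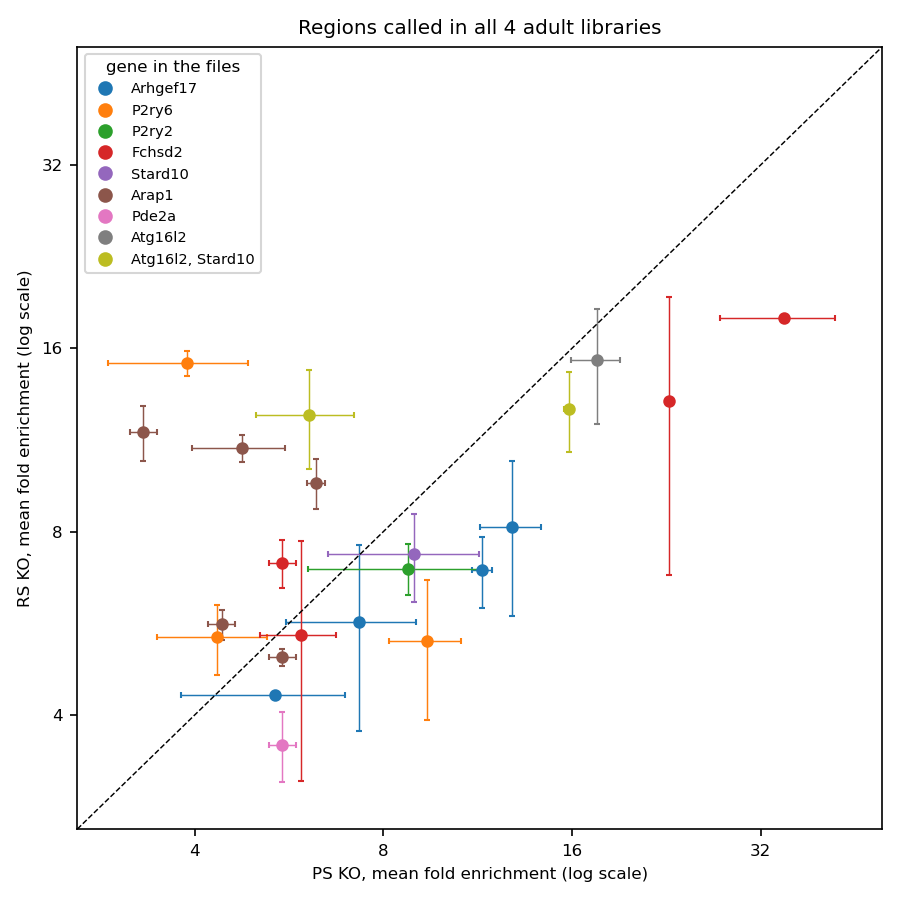
Mean fold enrichment in RS KO (y axis, log scale) against PS KO (x axis, log scale) of the 22 regions called in all 4 adult libraries, coloured by the gene the files list, with SD whiskers (n = 2) and a dashed line of equality. Regions of Arap1 and P2ry6 lie farthest above the line, with the upstream Stard10 region, and the Fchsd2 exon and promoter regions lie below it at the right.

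Against the spermatogonia, 5 of the 22 regions called in all 4 adult libraries had no spermatogonial peak (29.9% over the genome). They were the Fchsd2 exon region, the upstream Stard10 region, the P2ry6 and Pde2a upstream regions described above, and an intergenic region listed under Fchsd2. Another 9 of the locus regions were called in both c-Kit+ KO and both PS KO libraries. Limma called 31.9% of such regions over the genome, and because the PS libraries entered the choice of the locus, its own regions are described with no test. Relative to the libraries' medians (3.17 and 2.81 in c-Kit+ KO, 4.04 and 4.09 in PS KO, log2), 5 of the 9 were lower in PS and 4 were higher. The uncentred values of the P2ry2 promoter were higher in PS, and its centred change was -0.12, so that the direction there depends on the scaling. The Fchsd2 promoter was higher on both scales, with a centred change of 0.41, and at the last Arap1 start the centred change was -0.97.

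Loss of Scml2 and the step from Thy1+ to c-Kit+ cells could be tested without the contrast that chose the locus. In the 8 spermatogonial libraries, 6 regions of the locus were called in every library, 3 of Arhgef17, the promoters of Fchsd2 and Atg16l2, and the region between Atg16l2 and Stard10. P2ry6, P2ry2, Arap1 and Pde2a had none. By limma with Benjamini-Hochberg adjustment, 0 of the 6 differed between KO and WT, and over the genome 0 of 9502 did (0%, with 493 at an unadjusted p under 0.05, among them 1 of the 6). That region was the Atg16l2 promoter, which was lower in KO by a centred log2 change of -0.41 (SE 0.157, limma adjusted p = 0.883). At the Arhgef17 promoter the change was 0.16 (SE 0.170, limma adjusted p = 0.976), although its uncentred values in Thy1+ cells did not overlap. The libraries' own medians at the 9502 regions were 4.11 and 3.36 in Thy1+ KO and 3.39 and 3.08 in Thy1+ WT on the log2 scale. The genotype by stage interaction also had 0 of 6 and 0 of 9502 (0%, with 454 at an unadjusted p under 0.05). On median the 6 changed by 0.04 and all 9502 by -0.04 with genotype.

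Between c-Kit+ and Thy1+ cells, 0 of the 6 regions passed by limma (1 at an unadjusted p under 0.05), against 103 of 9502 over the genome (1.08%). The lowest limma adjusted p was 0.308, at the Atg16l2 promoter, with a centred log2 change of -0.35 (SE 0.157). Of the 13 locus regions called in both Thy1+ KO libraries, 1 had no peak in either Thy1+ WT library (11.3% over the genome), and this was the P2ry6 intron region. The number of peaks in the locus was 1.52 times as high in KO as in WT spermatogonia (log2 ratio 0.61, exact permutation test, 2-sided, p = 0.222, adjusted over 2 tests 0.444, with 0.0556 the smallest p the design allows). Per 10000 peaks of the library the log2 ratio was 0.22 (exact permutation test, p = 0.278), and with equal peak numbers per library it was 0.24. The genotypes overlapped, since c-Kit+ WT replicate 1 had 41 peaks and Thy1+ KO replicate 2 had 25. For c-Kit+ against Thy1+ the log2 ratio was 0.14 (exact permutation test, 2-sided, p = 0.944, adjusted 0.944), and it was -0.09 when counted per 10000 peaks of the library.

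Related genes elsewhere in the genome were examined at their promoters, from lists of each family. Among 13 other purinergic receptor genes, 7 had promoter peaks in both RS libraries and 6 in both PS. P2ry12 (5.87 and 4.87) and P2ry13 (8.21 and 4.87), nucleotide receptors of microglia and blood cells, were called in both RS libraries and in no other library, as the P2ry6 promoter was. Thus 2 of the 7 had no PS peak, beside 24.0% of the regions of both RS libraries over the genome. Nothing particular to the family is read from this count. Tests of these lists used the merged region that holds the promoter peak, which can reach over a neighbouring start. Over the genome, limma called 4473 of 21302 regions different between RS and PS (21.0%, 2830 higher and 1643 lower in RS). Of 5 purinergic genes that could be tested, P2rx7 was higher in RS (log2 change 0.63, SE 0.195, limma adjusted p = 0.0437, 9.39 and 8.11 against 6.10 and 6.93) and 0 were lower. The median change of the 5 was 0.09, against -0.07 for all regions.

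Calls among relatives of the other members are given beside the 21.0% called over the genome, and nothing particular to these families is read from them. Among 8 cyclic nucleotide phosphodiesterase genes tested, Pde4a was higher in RS (log2 change 1.07, SE 0.211, limma adjusted p = 0.00822) and 2 were lower, with a median of -0.18. Of 9 START-domain genes 0 were higher and 2 lower (median -0.31), and of 18 Arf GAP genes 0 were higher and 1 lower (median -0.11). Of 11 F-BAR genes 1 was higher and 2 were lower (median 0.02), the higher one being Fes (log2 change 0.84, SE 0.195, limma adjusted p = 0.0143), a kinase of myeloid and other cells. The number of calls between RS and PS over the genome was not stable when 1 library was left out. Such a fit keeps a single library in 1 arm, so it cannot tell which library a given call rests on.

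The labels of the adult cells were compared with marker genes. Of 6 round spermatid markers with a listed start (Prm1, Tnp1, Tnp2, Acrv1, Acr and Spaca1), 6 had promoter peaks in both RS and in both PS libraries, with a summed fold enrichment of 105 to 119 in RS and 60.2 to 96.5 in PS. The 6 pachytene markers (Sycp3, Piwil1, Ybx2, Adam2, Hspa2 and Pgk2) were also called in all these libraries. They summed to 133 to 171 in PS and 103 to 114 in RS. Presence of a peak at these markers thus did not tell the 2 cell types apart. The PS libraries differed from each other at spermatid markers. PS KO replicate 1 was higher than replicate 2 at Tnp2 (32.8 against 9.06), Prm1, Tnp1 and Acrv1. It was lower at Acr (22.1 against 24.5) and alike at Spaca1 (10.3 and 10.1). At Tnp2, PS KO replicate 1 also lay above both RS values (29.3 and 24.9). Sertoli cell markers summed to 42.7 to 54.4 in PS and 8.66 to 16.0 in RS, and Leydig cell markers to 11.8 to 13.9 in PS and 0 in RS. Their part in the regions that were higher in PS was not tested. The Thy1 gene had no promoter peak in any library, including those labelled Thy1+. H3K27ac peaks do not measure Scml2 RNA or protein, so the genotype labels were not checked by these data.

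The genes of the locus did not follow 1 common profile over the 12 libraries. Taking each gene's highest fold enrichment per library (log2, centred, with an uncalled gene set to the library's lowest value), correlations between pairs of members ran from -0.71 (Fchsd2 and Pde2a) to 0.52 (Arap1 and Pde2a), and P2ry6 and Arap1 had 0.32. P2ry6 had no locus peak in Thy1+ WT or c-Kit+ KO, and Pde2a had none in any spermatogonial group. Lowest values, which reflect the library and not the gene, can therefore enter these correlations. Among 16634 genes outside the locus, the 5 whose profile was most like the mean of the 6 members were Gm20139 (Pearson r 0.90), Ckb (0.84), Necap2 (0.83), Arih2 (0.82) and Pbxip1 (0.82), over 12 libraries that share their depth with every gene compared. At Ckb, brain-type creatine kinase, fold enrichment was 11.7 and 15.1 in RS and 7.24 and 7.46 in PS. Only genes called in both RS libraries were compared, and the locus they were matched to was chosen for higher RS signal. The order of RS and PS at such a gene therefore supports nothing. These correlations describe the libraries and carry no test.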

How the data were processed

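Each of the 28 libraries had its own peak table, so replicates were not pooled before calling. Per the submitters' processing notes, the authors used Bowtie, MACS2 and mm10, and versions, settings and read filters are not given in the sources used here. Per the file headers, the deposited values were the signal height at each summit (a whole number), −log10 p-values and −log10 q-values, and a fold enrichment. In every library the deposited fold enrichment was height plus 1 over background plus 1 with a single background per library, so the values show no local or input control. Read depth is unknown and no counting interval was computed.

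A peak was represented by its highest summit, mitochondrial peaks were left out, and peaks of the 12 H3K27ac libraries that overlapped by at least 1 bp were merged. The value of a region was its highest fold enrichment. Tests used limma 3.58.1 (R 4.3.3) on log2 fold enrichment, each library centred on its median over regions called in every library compared, with Benjamini-Hochberg adjustment over all regions and a threshold of 0.05. Genotype and stage entered the spermatogonial fit together, with 4 groups sharing 1 estimate of spread. Peak numbers were compared by exact permutation within stage or genotype. The limma step was checked on simulated data with independent normal noise of the same spread in every region. Real regions can differ in spread and their heights are whole numbers. The recovered numbers therefore check the code and do not give the power of the real comparisons. With a log2 change of 1 it recovered 99 of 100 changed regions in the genotype comparison and 67 of 100 in RS against PS, and with a log2 change of 2 it recovered 100 of 100 in each.

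For each gene of the stretch, the region with the highest mean RS value was named. The other regions given singly, the RefSeq features and the figure panels were chosen after their values were seen. The locus, its members and the gene lists were chosen with earlier results of these data known. Alternatives were quantile normalization, a fold enrichment of at least 5, 50% overlap, imputed calls, a replicate block, equal peak numbers (17877 per library) and leaving out each library. Promoter sequences and gene extents came from RefSeq GRCm38.p6. Analyses outside R used Python 3.11.15, numpy 2.4.6 and pandas 2.3.3.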

Additional observations from a re-analysis of the deposited data

How the results depend on the processing

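The genotype comparison gave 0 calls under all its alternatives. Over the genome, c-Kit+ against Thy1+ calls went from 103 to 66 with quantile normalization, 68 with a fold enrichment of at least 5, 490 with imputed calls (a library's lowest value where it had no peak), 205 with a replicate block, and 5 to 150 leaving out 1 library (5 without Thy1+ WT replicate 1, 36 without Thy1+ KO replicate 1, 35 without c-Kit+ WT replicate 2, and 29 and 35 without c-Kit+ KO replicates 1 and 2). PS against c-Kit+ calls went from 3983 to 792, 2475 and 15460 under the first 3 of these and to 0 to 4588 leaving out 1 library (0 without c-Kit+ KO replicate 2, 2641 without PS KO replicate 2). RS against PS calls went from 4473 to 1864 with stricter peaks, 14722 with imputed calls, and 0 to 3427 leaving out 1 library (2613 without RS KO replicate 1, 0 without PS KO replicate 2). Where an arm was left with 1 library, it was assumed to vary like the others. The block changed no other call count by over 1.5 times. Same-numbered libraries correlated by 0.05 to 0.16 in spermatogonia (6 pairs), 0.00017 in c-Kit+ and PS and 0.04 in PS and RS. These correlations were taken after centring each library, so they cannot show a difference shared by a whole library. Replicate 1 had more peaks and a higher background height than replicate 2 in every group. Whether same-numbered libraries were prepared together is not known. With the replicate block the exact permutation p for peak numbers in the locus was 0.125 for genotype, the smallest possible, and 1 for stage.

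The stage ratio of locus peaks turned to -0.40 with stricter peaks, -0.28 with equal peak numbers and -0.089 per 10000 peaks (chosen after seeing the data), and spanned -0.18 to 0.47 leaving out 1 library, while that for genotype spanned 0.28 to 0.93. Mean locus peaks with stricter peaks were 11.5 (Thy1+ WT), 24.5 (Thy1+ KO), 12 (c-Kit+ WT), 13 (c-Kit+ KO), 19.5 (PS) and 28 (RS), from 19, 38, 28.5, 34.5, 66 and 70. With equal peak numbers they were 16.5 (Thy1+ WT), 20.5 (Thy1+ KO), 14 (c-Kit+ WT), 16 (c-Kit+ KO), 10 (PS) and 15.5 (RS). On that count the RS mean lay below those of both Thy1+ groups and of c-Kit+ KO. Single libraries spanned 25 to 51 in Thy1+ KO and 16 to 41 in c-Kit+ WT. Regions called in RS went from 36 to 18 with stricter peaks, 11 with equal numbers, and 55 to 63 in 1 library. Those with no PS peak went from 11 to 6 under both stricter settings, and those higher in both RS from 7 to 3 and 0, as fewer regions were then called in PS.

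In the spermatogonial fits the Fchsd2 promoter genotype change of -0.0074 turned to 0.011 with quantile normalization and 0.027 with stricter peaks (-0.049 to 0.078 leaving out 1 library). The region between Atg16l2 and Stard10 spanned -0.056 to 0.26 for genotype and -0.26 to 0.067 for stage. None of these passed the threshold. Low heights and unknown depth limit what a missing peak shows.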
